A study of Homo sapiens with 15 samples.

Results

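The data described here are the 5 libraries of the colorectal carcinoma cell line HCT116 among the 15 bisulfite sequencing libraries of 3 such lines. They were chosen by the cell line and dose in their titles. HCT116 cells had been cultured with 0, 500 or 1000 nM 5-azacitidine. Technical duplicates were made of the untreated cells (2 libraries) and of those given 1000 nM (2 libraries), the 500 nM dose had a single library, and the labels give the line no other treatment. The duration of the treatment is not given in the sources used here. DLD1 and HCT8, the other lines, had 5 libraries each at the same doses and are used below only for comparison. All libraries of a line come from 1 established line. Differences between the duplicates of a dose measure technical spread and not the spread between cultures. Cells at different doses were cultured apart, so a difference between doses cannot be told apart from a difference between cultures.

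In human cells a large share of CpG methylation lies in repetitive DNA, where it is part of what keeps transposable elements silent. After each round of replication the maintenance enzyme DNMT1 copies the pattern onto the new strand. The analogue 5-azacitidine is taken up like cytidine and incorporated into RNA and, after reduction, into DNA, where DNA methyltransferases become covalently bound to it and methylation is diluted as cells divide. HCT116 is a mismatch-repair-deficient line that has been used widely to study these enzymes.

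The deposited value for each repeat is the percentage of its CpGs that were methylated, as a whole percent. Of the 834 repeat names, 274 were those of long terminal repeats and endogenous retroviruses, the remains of past retroviral insertions, and 168 began with MER, a mixed group of medium-reiteration repeats. Another 111 were names of LINE-1 (L1) elements, which encode the proteins for their own retrotransposition, and 39 of Alu and its precursor monomers, the short elements that L1 mobilizes. Simple repeats, short tandem motifs, had 75 names, and the Tigger and Charlie DNA transposons 51. The number of reads behind a value is unknown, so no counting interval or detection limit can be given.

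A named repeat could not be followed from one HCT116 library to another. Across the 834 names, which share the libraries' depth, the 10 pairs of HCT116 libraries had Pearson correlations from -0.0744 to 0.0843 and Spearman correlations from -0.0640 to 0.0819. The untreated replicates were at 0.0843 and the replicates at 1000 nM at -0.0129. The rows matched no better in the other lines, with Pearson correlations from -0.0343 to 0.0504 in DLD1 and from -0.0477 to 0.0202 in HCT8. The median difference of a named repeat between replicates was 10 percentage points without drug and 15 points at 1000 nM. For this reason the results below use only summaries that do not depend on which value belongs to which name: means, percentiles, spreads and shares of repeats at given levels. They assume that each library covers the same repeats.

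The rows of some well-known repeats show the size of this disagreement. L1HS, the human-specific and still mobile L1 family, was listed at 67% in both untreated replicates, at 71% at 500 nM and at 41% and 75% at 1000 nM. The pericentromeric satellite HSATII was listed at 75% and 100% without drug, at 17% at 500 nM and at 67% and 57% at 1000 nM. The centromeric satellite ALR/Alpha was listed at 83% and 81% without drug, at 0% at 500 nM and at 60% and 72% at 1000 nM. The widest gap among 14 repeats picked by name was that of AluY, a young and abundant Alu subfamily, listed at 0% and 77% without drug, 52% at 500 nM and 76% and 90% at 1000 nM. HERVK-int, the internal part of the youngest human endogenous retrovirus family, was listed at 67% and 81%, at 26%, and at 50% and 57%. Of these 14 repeats, 10 had both values at 1000 nM below both values without drug. That was so in 49.5% of all rows, and in 2.16% both treated values lay above both untreated ones. Because rows did not match between libraries, these counts say nothing of single repeats.

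Values listed under the names of 1 family were often as far apart as those of all repeats together. For 4 lists in 5 HCT116 libraries, the standard deviation within a list was at or above that of the whole library in 9 of 20 cases and below it in 11. The 17 AluS names, closely related and of high copy number, had standard deviations of 9.79 and 19.9 points in the untreated HCT116 libraries, 25.01 points at 500 nM and 16.8 and 19.6 points at 1000 nM. Over all repeats the standard deviations of the same libraries were 13.7 and 18.5, 19.4, and 13.9 and 20.2 points. In replicate 1 of untreated DLD1, the AluS names had a standard deviation of 1.63 points against 15.3 points over all repeats. The 14 AluY names, the youngest Alu subfamilies, had standard deviations of 28.6 and 10.2 points in untreated HCT116, 22.1 points at 500 nM and 7.80 and 19.99 points at 1000 nM. The 9 young L1 names had 6.23 and 17.8, 13.5, and 16.5 and 23.4 points in the same order, and 9 satellite names 5.49 and 14.9, 30.8, and 5.19 and 23.96 points. In the DLD1 library named above, the AluY, young L1 and satellite names had 4.11, 3.24 and 17.5 points. Its rows did not correlate with those of the other untreated DLD1 replicate (Pearson 0.00477), so these values do not compare the lines. Nor do they describe the spread within a repeat family, because rows did not match between HCT116 libraries either.

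The main comparison asked how far the methylation of repeats as a whole was lower with drug. The median repeat was methylated at 75% in both untreated replicates, at 56% at 500 nM and at 59% and 64% at 1000 nM. The mean over repeats was 72.9% in both untreated replicates, 54.7% at 500 nM and 56.9% and 62.5% at 1000 nM. All 3 treated libraries lay below both untreated ones. The mean at 1000 nM minus that without drug was -13.2 points, with a standard deviation of 3.97 points between the differences of the replicates (n = 2 technical replicates per dose). For the single library at 500 nM the difference was -18.2 points. In relative terms the libraries at 1000 nM stood 21.9% and 14.2% below the untreated mean and the library at 500 nM 24.998% below it. Both comparisons use the same untreated libraries.

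With 2 libraries against 2 the two-sided exact permutation test of the dose labels cannot go below p = 0.333, and it gave that value for the mean, the median and the mean log2 odds. The comparison therefore rests on the gap between doses beside the gap between replicates. Sorted by value and compared rank by rank, the untreated replicates differed by 4.38 points on average and the replicates at 1000 nM by 6.995 points. An untreated library and a library at 1000 nM differed by 10.4 to 16.1 points in the 4 possible pairs. The library at 500 nM differed from the untreated libraries by 18.7 and 18.2 points. All 6 distances between an untreated and a treated library exceeded both distances between replicates. The distances between replicates are technical and hold no spread between cultures.

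**Figure D1:**
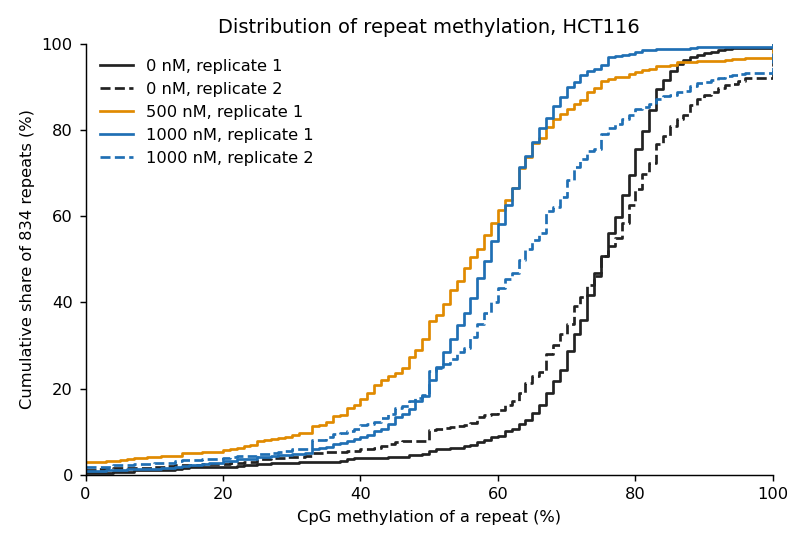
Cumulative share of the 834 repeats (%, vertical) with a CpG methylation at or below the level on the horizontal axis (%), one line per HCT116 library. The treated curves lie to the left of the untreated ones over most of the range, with medians of 56% to 64% against 75%, and the curves of both second replicates (dashed) reach 100% methylation with more repeats left.

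The distributions of untreated and treated libraries overlapped, and more so for the second replicate at 1000 nM than for the first. A value drawn from an untreated library exceeded a value drawn from a library at 1000 nM in 68.8% to 86.5% of pairs of values, with ties counted equally to each side. Against the library at 500 nM this share was 83.5% and 79.98%. Between the untreated replicates it was 48.5%. The median of the first replicate at 1000 nM, 59%, was reached or undercut by 8.75% and 14.0% of the repeats in the untreated libraries. For the second replicate, with a median of 64%, these shares were 12.8% and 21.2%.

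Repeats below 50% methylation made up 4.92% and 7.91% of the untreated libraries, 31.5% of the library at 500 nM and 18.3% and 18.5% of those at 1000 nM. The replicates at 1000 nM were thus nearly equal in this share although their means were 5.61 points apart. Between doses, most of the difference in the share below 50% lay in the range from 20% to 49%, which held 3.00% and 5.40% of repeats without drug, 26.1% at 500 nM and 15.6% and 14.9% at 1000 nM. Very low levels were rare in all libraries. Repeats below 20% made up 1.92% and 2.52% without drug, 5.40% at 500 nM and 2.76% and 3.597% at 1000 nM.

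At the other end, repeats at 80% to 99% methylation made up 29.4% of both untreated libraries. They made up 3.72% at 500 nM and 1.799% and 9.83% at 1000 nM. With fully methylated repeats included, the share at 80% or more was 30.3% and 37.3% without drug, 7.07% at 500 nM and 2.40% and 16.5% at 1000 nM. The treated libraries were lower than the untreated ones in both shares. The exact permutation test was again at its floor of p = 0.333 for the shares at 80% or more, at 80% to 99% and below 50%.

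Fully methylated repeats did not follow the dose. Values of 100% were listed for 8 and 66 repeats in the untreated replicates, for 28 at 500 nM and for 5 and 56 at 1000 nM. Both second replicates held many more than both first replicates, and the doses overlapped. The share at 90% or more showed the same pattern, at 2.64% and 12.7% without drug, 3.96% at 500 nM and 0.719% and 9.11% at 1000 nM. The labels tie the replicate numbers to nothing shared, and the part of depth in this difference was not tested. Values of 0% were listed for 4 and 10 repeats, for 25, and for 7 and 16 in the same order, so the 500 nM library held the most.

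**Figure D2:**
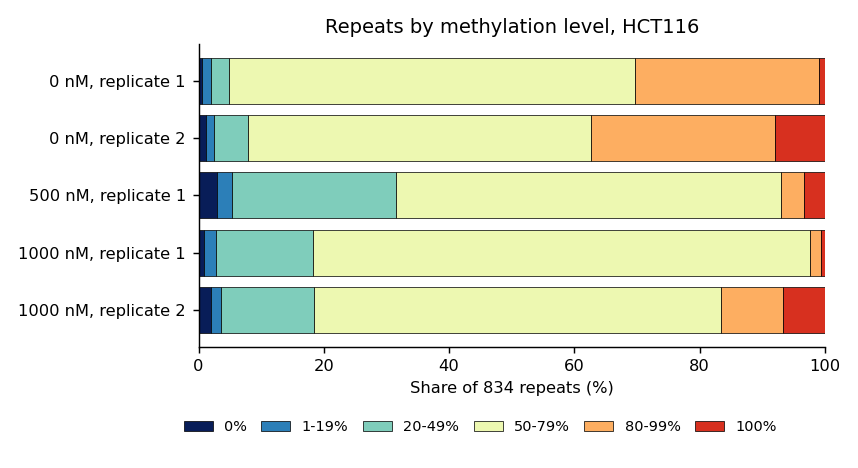
Share of the 834 repeats (%, horizontal) in 6 bands of CpG methylation for each HCT116 library, one bar per library. The 80-99% band holds 29.4% in both untreated libraries and between 1.799% and 9.83% in the treated ones, the 20-49% band is wider in the treated ones, while the 100% band is wide in both second replicates.

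The lower level with drug extended over most of the distribution. At 17 of 19 percentiles from the 5th to the 95th, in steps of 5, both libraries at 1000 nM lay below both untreated ones. The exceptions were the 90th and 95th percentiles. The 10th percentile was 61.3% and 50% without drug, against 42.3% and 38.3% in the libraries at 1000 nM. At the 25th percentile the untreated libraries stood at 70% and 67% and the treated ones at 51.3% and 52%. The 75th percentile was 80% and 83% against 65% and 73%. At the 90th percentile the untreated libraries were at 84% and 93% and those at 1000 nM at 70% and 88%, so the doses overlapped. At the 95th percentile both second replicates were at 100%. In DLD1 and in HCT8 the libraries at 1000 nM lay below the untreated ones at all 19 percentiles; this difference from HCT116 was not tested.

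In percentage points the shift between means over replicates was smaller toward the top. It was -15.4 points at the 10th percentile, -16.9 at the 25th, -13.5 at the median, -12.5 at the 75th and -9.50 at the 90th. This order turned when 1 library was left out. Without replicate 2 at 1000 nM the shift was -13.4 points at the 10th and -18.5 at the 90th percentile, and without untreated replicate 1 it was -9.70 and -14 points. Without replicate 1 at 1000 nM it was -17.4 and -0.50 points, and without untreated replicate 2 -21 and -5 points. With all libraries, the level at 1000 nM was 72.4% of the untreated level at the 10th percentile, 82.0% at the median and 89.3% at the 90th. The odds of a CpG being methylated were used as the other scale, as log2 of the ratio of methylated to unmethylated percent with 1 point added to each. On it the mean shift was -0.88 at the 10th percentile, -1.01 at the 25th, -0.88 at the median, -0.95 at the 75th and -0.95 at the 90th. Percentiles rank each library on its own and follow no repeat between libraries.

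How well 1 number describes the shift was measured over the 9 deciles, averaged over replicates. A constant difference of -13.9 points left a root mean square residual of 1.84 points. A constant ratio, with treated levels at 81.8% of untreated ones, left 3.39 points. A constant difference of -0.95 in log2 odds left 0.875 points. The shapes could not be ranked beyond the replicate error, because the deciles of the untreated replicates differed from each other by 5.26 points and those of the replicates at 1000 nM by 8.06 points (root mean square). Taken for each of the 4 pairs of an untreated and a treated library, the log2 odds difference left the smallest residual in 3 pairs and the ratio in 1. That pair was replicate 1 at 1000 nM and replicate 2 without drug, where the ratio left 1.42 points and the log2 odds difference 7.09 points.

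**Figure D3:**
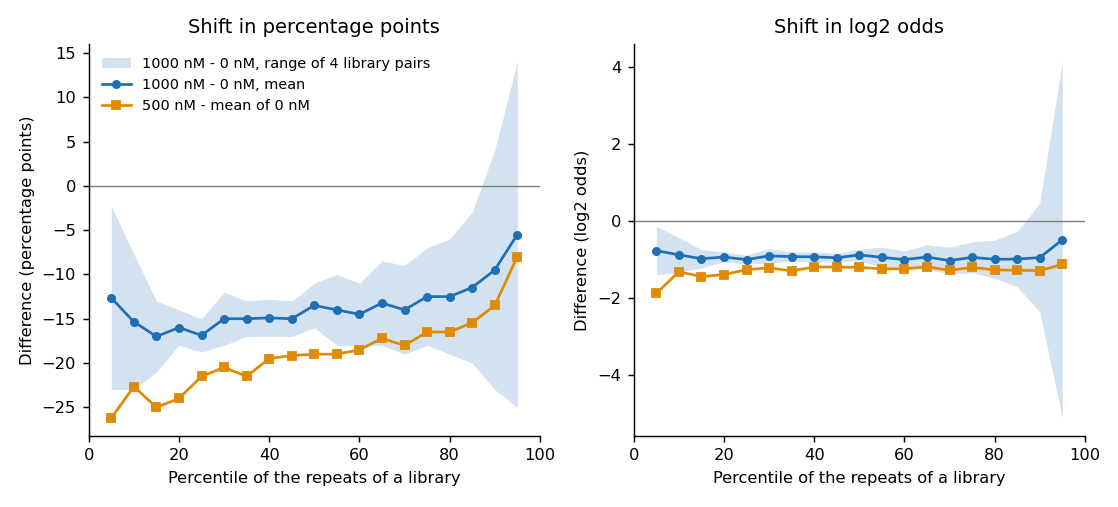
Treated minus untreated methylation of HCT116 (vertical) at each percentile of the repeats of a library (horizontal), in percentage points on the left and in log2 odds on the right; circles are 1000 nM (means over replicates), the band is the range over the 4 pairs of libraries and squares are the single library at 500 nM. With all libraries the mean shift in points goes from -15.4 at the 10th to -9.50 at the 90th percentile, the log2 odds shift stays between -0.88 and -1.03 from the 10th to the 90th, and the band crosses 0 at the 90th and 95th percentiles.

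The width of the distribution overlapped between doses and differed between replicates. The standard deviation over repeats was 13.7 and 18.5 points without drug, 19.4 points at 500 nM and 13.9 and 20.2 points at 1000 nM. The interquartile range was 10 and 16 points without drug, 18 points at 500 nM and 13.8 and 21 points at 1000 nM. Both measures overlapped between 0 and 1000 nM, and the exact permutation p was 0.667 for each. The second replicate had the larger standard deviation in all 6 replicated groups of the 3 lines, at 0 and at 1000 nM. Within a replicate number, 1000 nM minus 0 nM was 3.75 and 5 points in interquartile range and 0.144 and 1.75 points in standard deviation. Without values of 0% and 100% the standard deviations were 12.6 and 15.5, 15.2, and 12.5 and 16.1 points. The asymmetry did separate the doses. Skewness, negative where a tail extends to low methylation, was -2.58 and -1.49 without drug, -0.50 at 500 nM and -1.21 and -0.56 at 1000 nM, with all treated libraries closer to 0. Its replicates differed by 1.09 without drug and by 0.646 at 1000 nM, and the exact permutation p was at its floor of 0.333.

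The library at 500 nM was compared with those at 1000 nM as a single library without a replicate check. Its mean was 5.06 points lower than their mean, and 2.25 and 7.87 points lower than the first and the second replicate. Its rank-by-rank distance was 4.82 points to the first and 7.87 points to the second replicate, against 6.995 points between these replicates. The first of these distances was smaller than the gap between replicates and the second larger. The lower part differed more. At 12 of the 19 percentiles, from the 5th to the 60th, the 500 nM library lay below both libraries at 1000 nM. At the 20th percentile it was at 42% against 50% in both. From the 65th percentile up it lay between the replicates at 1000 nM or was equal to one of them. The share of repeats below 50% was 13.1 points higher at 500 nM than the mean at 1000 nM. The replicates at 1000 nM differed by less than 1 point in this share but by 5.61 points in their means. The libraries at the higher dose thus did not have the lower level.

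The response of HCT116 was set beside those of DLD1 and HCT8, because an earlier reading of these data had found it the smallest in percentage points. HCT116 started from the highest level, so the comparison was made on 3 scales. As a log2 ratio of mean levels, the replicates of HCT116 gave -0.36 and -0.22, those of HCT8 -0.55 and -0.50 and those of DLD1 -0.65 and -0.71. As a difference in mean log2 odds, they gave -1.09 and -0.77 in HCT116, -1.41 and -1.36 in HCT8 and -1.42 and -1.64 in DLD1. With libraries paired by replicate number, both differences of HCT116 were closer to 0 on every scale than all 4 of the other lines. The labels tie these numbers to nothing shared, and in log2 odds the separation depended on the pairing. Had the libraries of each line been paired across numbers, the log2 odds differences of HCT116 and HCT8 would overlap. The average response of a line does not depend on the pairing. Relative to the average response of the other lines, that of HCT116 was smaller by 8.55 points, by 0.31 in log2 ratio and by 0.53 in log2 odds.

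Because HCT116 was chosen for its small response, these values are a description and no p is given. The scales share the same libraries, which are technical replicates of 1 line against those of the other lines. The size depended on which replicate at 1000 nM was used. Without the second replicate the response was smaller than that of the other lines by 5.74 points and by 0.24 in log2 odds. Without the first replicate it was smaller by 11.4 points and 0.81. At 500 nM, with 1 library per line and no test, the change was -18.2 points in HCT116, -23.2 in DLD1 and -23.8 in HCT8. In log2 odds it was -1.32, -1.69 and -1.67.

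**Figure D4:**
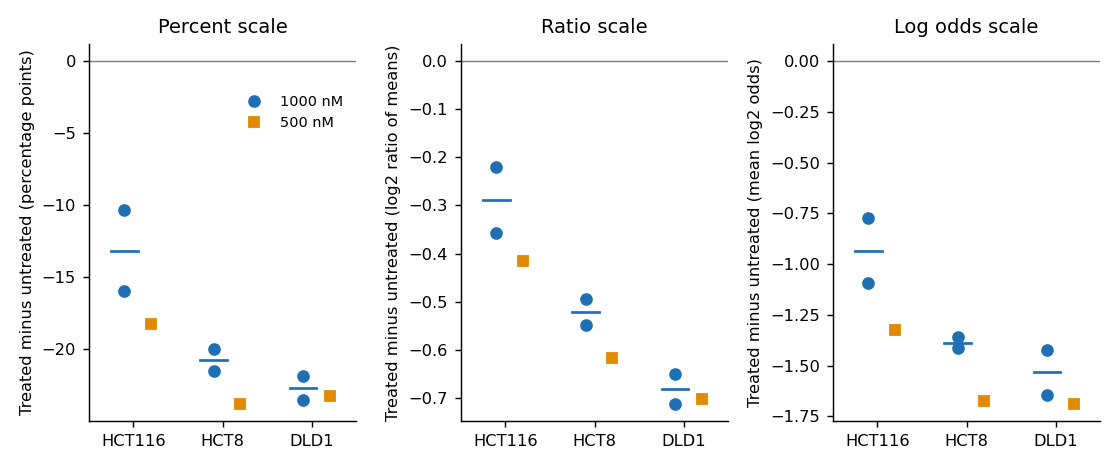
Treated minus untreated methylation of repeats (vertical) in 3 cell lines, in percentage points, as a log2 ratio of mean levels and as a difference in mean log2 odds. Circles are the 2 differences at 1000 nM formed by replicate number, and lines are their means. Squares are the single library at 500 nM against the mean of the untreated ones. Both HCT116 circles lie above all circles of the other lines on every scale, at -15.96 and -10.4 points on the first. In log2 odds this separation depends on the pairing by number.

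Shares of repeats at fixed levels gave different orders of the lines. The share below 50% methylation was 18.4% ± 0.085 in HCT116 at 1000 nM, 53.2% ± 7.88 in HCT8 and 80.3% ± 3.48 in DLD1 (SD, n = 2 technical replicates), from untreated shares of 6.41%, 8.39% and 18.3%. The small SD of HCT116 belongs to this level. At or below 66% methylation, its replicates at 1000 nM held 80.5% and 56.2% of repeats. At this dose most values of HCT116 were at 50% or more, and most of those of DLD1 were below it. The share at 80% or more went from 33.8% to 9.47% in HCT116, from 20.02% to 2.40% in HCT8 and from 7.13% to 2.04% in DLD1. In points this was the largest difference in HCT116, -24.3 against -17.6 in HCT8 and -5.10 in DLD1. These shares depend on the starting level, and no test of the difference was made on them. The rank-by-rank distance between replicates was also larger in HCT116, with 4.38 and 6.995 points against 2.24 and 3.81 in DLD1 and 1.06 and 3.38 in HCT8, without drug and at 1000 nM.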

How the data were processed

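Per the labels' protocols, bisulfite-converted DNA was read on a MiSeq (paired ends, 75 bp); the molecule field names RNA, against these protocols. BSMAP 2.74 (a bisulfite read aligner), Picard 1.8.4 and the build hg19 are named in the submitters' processing notes. The deposited values are, per the file headers, percent methylation of CpGs for RepeatMasker repeats, with 1 column per library in whole percents. Nothing on coverage, filters, the pooling of copies or normalization was given in the sources used here. The table has 835 rows, of which 1 (0.12%) has no name and was dropped, so that 834 were used.

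Groups follow the titles. Each library was summarized over its repeats without weights, with log2 odds using an offset of 1 point. Doses were compared by exact permutation of library labels, counting arrangements with an absolute difference at least as large. The replicates are technical, so these p-values measure only the spread between libraries. The planned test between lines is not reported, because HCT116 had been chosen for its response. The arithmetic of the functions was checked on an untreated HCT116 library that was shuffled and shifted by a constant, without simulated noise or depth. The comparisons and the list of 14 named repeats were chosen with earlier results of these data known, and repeats were named by that list and not by their change. The fits of 1 constant over deciles and the level bands were added after the data were seen. Alternatives were other averages, scales, offsets and levels, dropping values of 0% and 100%, keeping the unnamed row, a replicate block and leaving out each library. Python 3.11.15, numpy 2.4.6, pandas 2.3.3, scipy 1.17.1 and matplotlib 3.10.9 were used.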

Additional observations from a re-analysis of the deposited data

Results flagged for a closer look

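The share of repeats at 50% to 79% methylation moved in opposite directions in HCT116 and in the other lines at 1000 nM, with no overlap between doses in any of the 3 lines. In HCT116 it went from 64.7% and 54.8% to 79.3% and 64.99%, a difference of 12.4 points between means. In DLD1 it went from 77.6% and 71.6% to 16.1% and 19.3% (-56.9 points), and in HCT8 from 74.5% and 68.7% to 40.2% and 48.7% (-27.2 points). The response of HCT116 was thus 69.2 points above that of DLD1 and 39.5 points above that of HCT8. The difference was not tested. It depended on the lower edge of the band: the share at 60% to 79% was lower at 1000 nM in all 3 lines, with differences of -11.4 points in HCT116, -46.3 in DLD1 and -45.1 in HCT8. In HCT116 the doses were separated by less than 1 point at 50% to 79%, and the library at 500 nM, at 61.4%, lay between the untreated ones. At 80% or more, above this band, untreated HCT116 held 33.8% of repeats, DLD1 7.13% and HCT8 20.02%.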

How the results depend on the processing

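The lower mean at 1000 and at 500 nM kept its sign under all alternatives run, as did the smaller response of HCT116 on the 3 scales. No alternative could pass a test, since the designs do not allow it. Of 134 alternative values for 22 results, 111 moved by less than the spread between replicates or, for the response between lines, kept their sign. Some of these could not come out otherwise, since a replicate block or another pairing of replicates leaves a difference between means unchanged. The count is therefore no measure of robustness. Leaving out 1 library at a time gave -15.96 to -10.3 points for the mean at 1000 nM and 2.25 to 7.87 points for 1000 minus 500 nM. It gave -1.22 to -0.65 for the mean log2 odds at 1000 nM, -31.4 to -17.3 points for the share at 80% or more, -21.0 to -9.70 for the 10th and -18.5 to -0.50 for the 90th percentile. The difference in standard deviation between 1000 and 0 nM, 0.946 points, reversed to -1.42 without untreated replicate 1 and to -2.22 without replicate 2 at 1000 nM, and was at most 4.11. Its counterpart in interquartile range was 4.38 points.

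Shares moved with the level chosen. At 1000 nM the difference in the share at 80% or more, -24.3 points, was -38.4 with the level at 75% and -8.33 at 85%; the share below 50%, 12.0 points higher, was 7.37 with the level 5 points lower and 22.8 with it 5 points higher. At 500 nM these values were -43.4 and -9.77 for the high share (-26.7) and 17.4 and 36.2 for the low share (25.1). With a replicate block the mean difference at 1000 nM was the same, -13.2 points, and exact sign flips gave p = 0.5, the smallest for 2 pairs. Differences within replicate numbers were -14.0 and -5.00 points at the 90th percentile. Whether the numbers pair the libraries could not be read from repeats, whose values do not correlate. The cause of these changes was not tested. The depth of the libraries is unknown.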
